A study of Mus musculus with 26 samples.

Results

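Lung RNA from mice given Mitsui XNRi-7, a multiwalled carbon nanotube, at 128 µg per mouse was compared with lung RNA from mice given 42.7 µg of the same material. The members were the animals whose titles carry Mitsui H1 to H5 and Mitsui L1 to L5. They were 10 of the 25 animals and 11 of the 26 arrays of the series, because low dose animal 5 was hybridised on 2 arrays that were averaged into 1 value. The other animals were 5 controls and 10 given a second multiwalled nanotube, NM-401, at the same doses (5 each). All were MutaTMMouse, a transgenic strain used for mutation testing, aged about 12 weeks and named female in the sample labels, while the series design names males. In all 10 Mitsui animals Xist was well above background and Ddx3y, Uty and Kdm5d, genes of the Y chromosome, were not, while Eif2s3y, also Y-linked, was in 5 low dose and 4 high dose animals. Both nanotubes were suspended in mouse serum and instilled into the trachea weekly on 4 occasions, and lungs were taken 56 days after the last instillation. The labels do not say whether the stated dose was given at each instillation or in total. The series design speaks of a vehicle control, whereas the sample labels give the controls olive oil by gavage, so the controls may not have received the serum vehicle or an instillation. That difference touches every comparison with control below and does not enter the comparison of the doses.

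Each array carried lung RNA labelled with Cy5 beside a universal mouse reference labelled with Cy3, and a level here is the normalised log2 ratio of lung to reference. A difference of 1 on this scale is a 2-fold difference in lung level, and levels of different genes are not comparable because the reference differs between them. Of the probes, 46.7 to 57.7% were well above background in Cy5 on the 6 low dose arrays and 45.8 to 57.6% on the 5 high dose arrays. After filtering, 22950 features (genes or unnamed transcripts, 1 probe each) were tested, 14838 of them with a gene symbol. RNA came from random sections of whole lung, so that fewer cells of a type and less RNA per cell cannot be told apart. The lung markers Sftpc, Scgb1a1, Ager and Cdh5 were well above background in all 10 animals. Transcripts of heart and liver were present too and varied between animals: Myh6, a cardiac myosin heavy chain, ranged from 3.13 to 6.37 in the low dose group and from 4.17 to 5.15 in the high dose group, and Alb, encoding albumin, from 0.91 to 4.29 and from 0.27 to 4.50.

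Rigid multiwalled nanotubes persist in the lung, where alveolar macrophages attempt to engulf them. The lung response to such fibres is known to include recruitment of monocytes and granulocytes by chemokines, secretion of acute phase proteins by the lung itself, alarmin and type 2 cytokine signalling with mucus production, and deposition of matrix. Mitsui-type tubes are used as a reference material in inhalation toxicology, and comparing doses shows whether a larger burden comes with a larger transcriptional response.

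No gene was called different between 128 and 42.7 µg of Mitsui XNRi-7. In limma's moderated test with Benjamini-Hochberg adjustment, 0 of 22950 features passed an adjusted p of 0.05 (0% called) and the smallest adjusted p was 0.113. At an unadjusted p under 0.05 there were 1243 features (5.42%), of which 799 (3.48%) were higher and 444 (1.93%) lower at the high dose. All 5 high dose animals lay above all 5 low dose animals for 166 features (0.723%) and below them for 87 (0.379%), together 253 or 1.1% of those tested. Both doses differed widely from control in the same fit: 4809 features (21%) were called at the low dose, 2425 higher (10.6%) and 2384 lower (10.4%), and 5447 (23.7%) at the high dose, 2915 higher (12.7%) and 2532 lower (11%). Those comparisons share the 5 control animals. Replacing the intensity-dependent loess normalisation by median centring left 74 and 121 calls against control, and 0 between the doses.

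The high dose animals were spread over all 4 slides. The low dose animals lay on slides 1 to 3, and only the second array of low dose animal 5 lay on slide 4. The slide block was fitted without that second array, so slide 4 then held no low dose Mitsui animal. With slide as a block, 15 features were called between the doses, 13 higher and 2 lower at 128 µg, among them Usp19, Gabbr1, Haus5, Ogt, Ankzf1, Chkb, Rgs11, Apbb3, Ankrd16, Dock6 and Dtx3 (higher) and Mkks and Sfpq (lower). The named differences ranged from -0.41 for Mkks to 0.65 for Rgs11. The normalisation centres each array, so the median difference over all features within each slide was small by processing, between -0.000989 and 0.00852. The median absolute difference within a slide was 0.1104 to 0.1287, from 1 or 2 arrays a side.

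A p that misses the threshold does not show equal levels, so the sizes that the data leave out are given. The median difference over all features was 0.00278, small because the normalisation centres each array. The median absolute difference was 0.0642, against a median standard error of 0.0951. The 95% interval of the difference lay wholly within 1.5-fold for 21401 features (93.3%) and within 2-fold for 22614 (98.5%). The doses differed by a ratio of 3.00, a log2 of 1.58, and the upper bound of the interval was below that value for 22890 features (99.7%). That bound concerns rises only. Most features were not called against control at either dose, so the share says little about those that respond. Differences of at least 1.5-fold in either direction were measured for 87 features and of at least 2-fold for 12. With median centring only 7644 intervals (33.3%) lay within 1.5-fold, and with the log ratios that the scanner software wrote 16040 (69.9%).

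**Figure D1:**
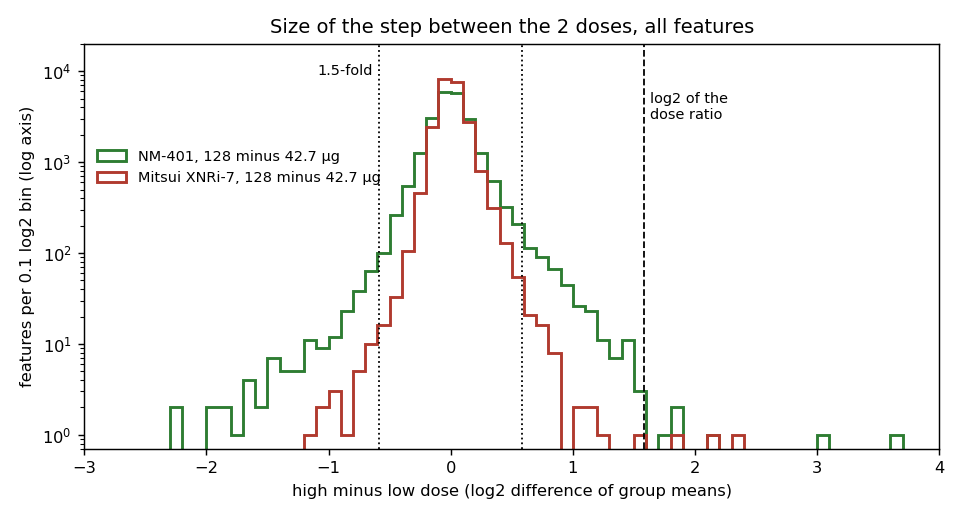
Histogram of the difference between 128 and 42.7 µg for all 22950 features, in log2 units on the x axis and features per bin on a log y axis, for Mitsui XNRi-7 (red) and NM-401 (green). Dotted lines mark 1.5-fold and the dashed line the log2 of the dose ratio, 1.58; the Mitsui histogram is the narrower, with a median absolute difference of 0.0642 against 0.0973 for NM-401.

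The response genes followed were 31 genes of the lung's reaction to nanotubes. They were picked with results of these data known, so that their difference from control is a description: all 31 were called against control at each dose (21% and 23.7% of all features were). With median centring 16 were called at the low dose and 17 at the high dose. None was called between the doses. For 30 of the 31 the upper bound of the interval lay below the log2 dose ratio. The exception was Clca1, encoding a secreted goblet cell protein, whose interval ran from -1.82 to 1.71. For genes below control, such as Npr3 and Esm1, that bound says nothing of a further fall. The interval lay within 2-fold for 23 of the 31 and within 1.5-fold for 11, beside 98.5% and 93.3% of all features. The response genes were thus bounded less tightly than features in general.

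Counts of list genes from here on are to be read beside the shares of all features. At the low dose 10.6% of all features were called higher and 10.4% lower than control, and at the high dose 12.7% and 11%. Between the doses 93.3% of intervals lay within 1.5-fold and 98.5% within 2-fold. Macrophage lysosome genes had the highest median against control of the 33 lists at both doses. Of 30 tested genes of the lysosome and of lipid-laden macrophages, 27 were called higher and 1 lower than control at each dose, with a median of 1.29 at 42.7 µg and 1.38 at 128 µg. Between the doses none was called, none had an unadjusted p under 0.05, and the median was 0.08 beside 0.00278 for all features. Trem2 encodes a macrophage receptor for lipids and was measured at 1.40, 1.39, 1.24, 1.98 and 1.59 in low dose animals 1 to 5 and at 2.22, 1.17, 0.89, 1.76 and 2.41 in high dose animals 1 to 5, against -2.39 to -1.81 in the controls. The dose groups overlapped, and the high dose animals held both the lowest and the highest Trem2 values. The means gave 12.3-fold over control at the low dose and 13.8-fold at the high dose, and a difference between doses of 0.17 ± 0.29 (SE, n = 5 per group; 95% interval -0.42 to 0.76; limma adjusted p = 0.999).

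Gpnmb, a glycoprotein of lysosome-loaded macrophages, was 1.01, 1.20, 0.69, 1.41 and 1.72 at the low dose and 2.14, 1.01, 1.34, 1.64 and 2.44 at the high dose. Its difference was 0.51 with an interval from -0.21 to 1.23. Spp1 (osteopontin, a secreted matrix and cytokine protein) was between 0.05 and 0.16 in 4 low dose animals and 0.86 in animal 5, and was 1.03, 0.31, 0.15, 0.78 and 1.42 at the high dose. Both genes had higher means at 128 µg, and in both the groups overlapped. Mmp12, the macrophage elastase, had means of 2.89 and 3.20, with a difference of 0.31 (-0.22 to 0.85); it was well above background in 1 of 5 controls. Msr1, a scavenger receptor, had a difference of 0.24 and Cd14, the lipopolysaccharide co-receptor, of -0.18. High dose animals 1 and 5 had the highest list means (1.75 and 1.89 above the control mean) and animals 2 and 3 the lowest (1.27 and 1.21), while the low dose animals ranged from 1.24 to 1.61.

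Among general macrophage and monocyte markers, 11 of 19 were called higher than control at the low dose and 10 at the high dose. Their median difference between the doses was -0.17, and 4 of the 19 were higher at 128 µg. Lyz2, encoding lysozyme, had the smallest p of the list: it was 4.79 to 5.09 at the low dose and 4.65 to 4.81 at the high dose, a difference of -0.22 (-0.38 to -0.06; adjusted p = 0.641). The groups met only at the edge, at 4.79 and 4.81.

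Acute phase reactants, plasma proteins and opsonins made in inflammation, were called higher than control for 11 of 17 genes at the low dose and 10 at the high dose. The medians against control were 0.84 and 0.90. Saa3, a serum amyloid A protein made in the lung, was -0.28, -0.29, 0.27, 1.15 and 0.32 at the low dose, and -0.08, -1.08, -0.97, 0.00 and 1.66 at the high dose. Control animals lay between -4.60 and -3.97, so that every treated animal stood far above them, and the low dose range lay inside that of the high dose (difference -0.33, -1.29 to 0.63). Lcn2, an iron-sequestering protein, was 3.72 to 4.22 and 3.66 to 3.91. Fgg, the fibrinogen gamma chain, was 3.61 to 4.69 at the low dose and 3.35 to 5.60 at the high dose.

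Chemokine ligands were called higher than control for 17 of 25 genes at the low dose and 16 at the high dose, with medians of 1.13 and 1.09. Ccl2, a monocyte attractant, had group means of -1.51 and -1.44, which is 8.04-fold and 8.41-fold over control, and a difference of 0.06 (-0.71 to 0.84). Ccl7, a related attractant, had a difference of -0.21. Cxcl5, a neutrophil attractant, had the lower mean at the higher dose: it was 0.45, -0.71, -0.31, 0.36 and -0.14 at the low dose and -1.65, -1.79, -1.12, -1.33 and 0.17 at the high dose. In 4 of 5 high dose animals it was below every low dose animal, and animal 5 stood within the low dose range. Its fold over control was 8.15 at 42.7 µg and 3.87 at 128 µg, and the difference between doses was -1.07 ± 0.39 (SE; -1.88 to -0.27; unadjusted p = 0.0111 and limma adjusted p = 0.693).

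Of 25 inflammatory cytokines and receptors, 12 were called higher and 2 lower than control at each dose. Of all features 10.6% and 12.7% were called higher and 10.4% and 11% lower at the low and high dose. Every interval of the list between the doses lay within 2-fold, beside 98.5% of all features. Il33, an alarmin released by injured epithelium, was 2.94 to 3.47 at the low dose and 2.46 to 3.50 at the high dose. Il6 had means of -1.02 and -1.07, and was well above background in 2 of 5 controls. Osmr, the oncostatin M receptor subunit, had the smallest p of the list with a difference of -0.19 (adjusted p = 0.807).

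The complement list leaned to lower values at the higher dose, without a call. Of 21 components, 14 were called higher than control at the low dose and 13 at the high dose, the medians against control being 0.93 and 0.71. Between the doses 6 had an unadjusted p under 0.05, all lower at 128 µg, beside 1.93% of all features, and the list median was -0.18. C3, the central component, was 4.17, 3.90, 3.72, 4.06 and 3.86 at the low dose and 3.42, 3.64, 3.13, 3.59 and 3.48 at the high dose. The 2 groups did not overlap, and its level was 3.97-fold over control at 42.7 µg and 2.82-fold at 128 µg. The C3 difference was -0.49 ± 0.13 (SE, n = 5 per group; -0.77 to -0.21), with an unadjusted p of 0.00126 and a limma adjusted p of 0.399. They also included C2 (-0.46), C7 (-0.35), C1ra (-0.26) and C1s1 (-0.19), whose products are proteases of the cascade and, for C7, a part of the membrane attack complex. Cfd, which adipocytes also make, had the widest interval of the list, from -0.71 to 3.26.

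Of 24 type 2 and goblet cell genes tested, 12 were called higher and 1 lower at the low dose, and 13 higher and none lower at the high dose. The shares of all features were 10.6% and 10.4% at the low dose and 12.7% and 11% at the high dose. Muc5b, a gel-forming airway mucin, was 5.33, 4.69, 5.16, 4.90 and 4.79 at the low dose and 4.76, 4.96, 5.28, 5.02 and 5.19 at the high dose, a difference of 0.06 (-0.45 to 0.58). It was 3.47 and 3.53 above control on the log2 scale. Slc26a4 (pendrin, an airway anion exchanger) was 6.23 to 6.45 and 5.89 to 6.30, both groups far above the 2.83 to 3.94 of the controls. Clca1 was between 5.54 and 8.94 at the low dose and between 6.56 and 8.44 at the high dose, and in no control was it well above background, so no fold against control is given. Retnla, a type 2 marker of macrophages and epithelium, had the smallest p with a difference of -0.36 (-0.65 to -0.07; adjusted p = 0.734).

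**Figure D2:**
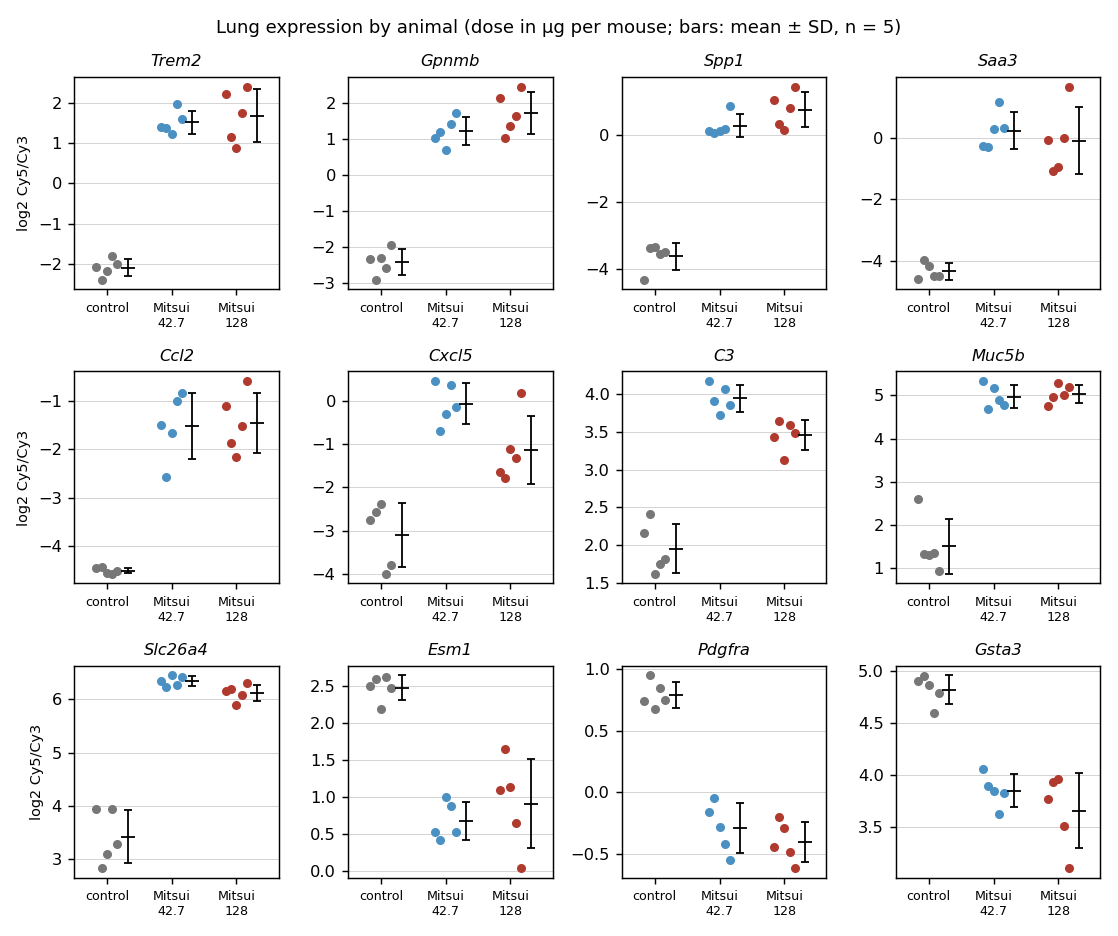
Normalised log2 Cy5/Cy3 (y axis) of 12 response genes in each control (grey), 42.7 µg Mitsui (blue) and 128 µg Mitsui animal (red), with mean ± SD beside the points (n = 5). For all 12 genes both dose groups lie apart from the controls, and for 11 of them, all but C3, the dose groups overlap.

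Genes below control showed the same picture. Esm1, a product of endothelial tip cells, was 0.42 to 1.01 at the low dose and 0.04 to 1.64 at the high dose, against 2.20 to 2.62 in the controls. Its levels were 0.286 and 0.338 of the control level. Npr3, the natriuretic peptide clearance receptor, had a difference of -0.25 between doses, Flt1, a receptor for vascular endothelial growth factor, of -0.06, and Cav1, the caveolin of endothelium and alveolar type 1 cells, of -0.02. Pdgfra, the platelet-derived growth factor receptor of lung fibroblasts, was -0.55 to -0.05 and -0.61 to -0.20, with an interval from -0.38 to 0.16. Inmt, a methyltransferase of lung fibroblasts, and Gsta3, a glutathione transferase, had differences of -0.12 and -0.19. Bex2 was 1.48 to 1.79 at the low dose and 1.67 to 2.60 at the high dose, against 3.19 to 4.31 in the controls, and the interval of its difference just included 0 (-0.01 to 0.90).

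**Figure D3:**
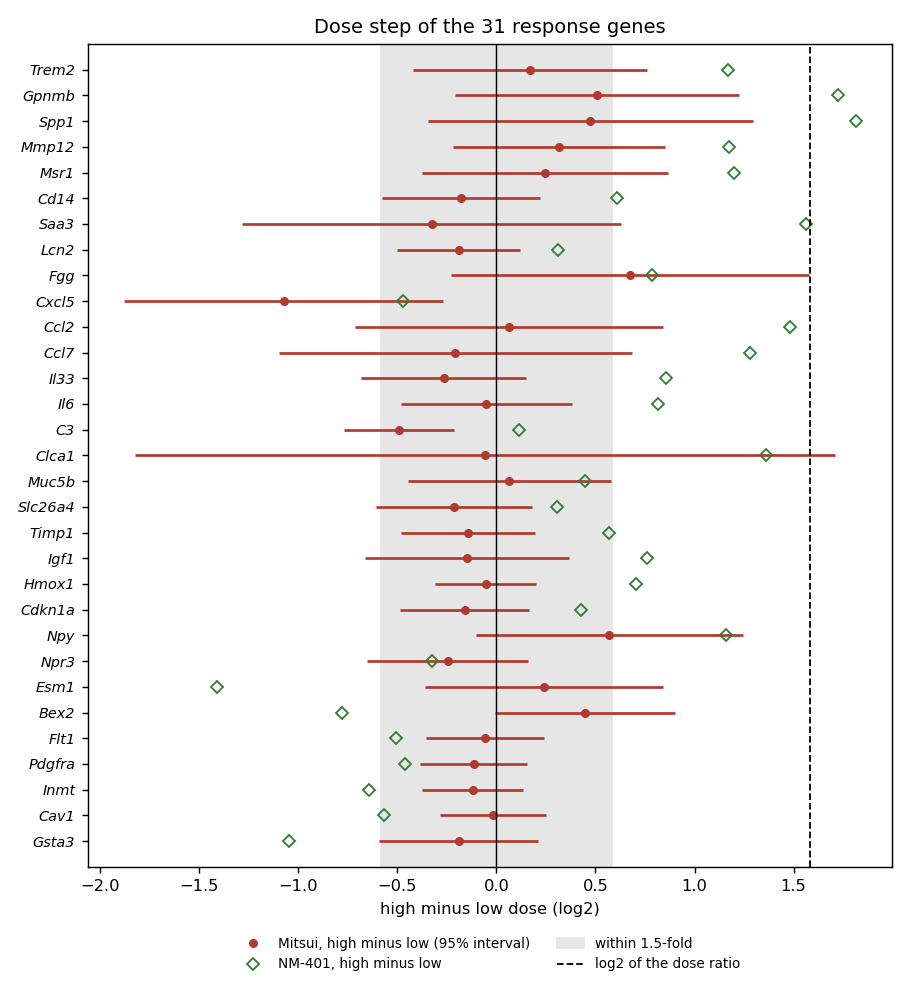
Difference between 128 and 42.7 µg (log2, x axis) for the 31 response genes: Mitsui XNRi-7 as red points with 95% intervals, NM-401 as green diamonds. The grey band marks 1.5-fold and the dashed line the log2 dose ratio; 11 Mitsui intervals lie inside the band, and that of Clca1 alone crosses the dashed line.

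Of 20 alveolar type 2 markers, 14 were called higher than control at the low dose and 12 at the high dose, and the median difference between doses was -0.13, with 5 of the 20 higher at 128 µg and none called. Sftpb, surfactant protein B, was 6.56 to 7.02 and 6.37 to 6.59 (difference -0.29, -0.50 to -0.07; adjusted p = 0.711). In the surfactant and lipid synthesis list 4 of 31 genes had an unadjusted p under 0.05 and were lower at 128 µg, beside 1.93% of all features, and 1, the cholesterol exporter Abca1, was higher (0.34). The 4 were Sftpb, Srebf1 (-0.26) and Insig1 (-0.24), which regulate lipid synthesis, and Cyp51 (-0.26), an enzyme of cholesterol synthesis. Alveolar type 1 markers were called lower than control for 8 of 17 genes at each dose, with a median between doses of -0.04; Ager, their abundant surface receptor, differed by -0.23. Club and ciliated cell markers had a median of -0.02.

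Endothelial markers were called lower than control for 10 of 23 genes at the low dose and 12 at the high dose and higher for none, beside 10.4% and 11% of all features called lower, with medians of -0.40 and -0.33. Mmrn1, a protein of lymphatic endothelium and platelets, had the smallest p of that list: it was 3.02 to 3.32 at the low dose and 3.39 to 3.67 at the high dose, with no overlap and a difference of 0.35 (0.08 to 0.62; adjusted p = 0.721). Fibroblast and smooth muscle markers were called lower for 11 of 22 genes at 42.7 µg and 10 at 128 µg, beside 10.4% and 11% of all features. They were called higher for 2 and 3, beside 10.6% and 12.7% of all features. Pdgfrb, the receptor of pericytes and fibroblasts, was 0.75 to 1.21 at the low dose, 1.03 to 1.61 at the high dose and 1.32 to 1.67 in the controls. It was called lower than control at the low dose alone (adjusted p = 0.000962, and 0.263 at the high dose), while the difference between doses, 0.33 (0.12 to 0.53), had an adjusted p of 0.496.

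Of 35 extracellular matrix genes, 8 were called higher and 3 lower than control at the low dose and 10 and 2 at the high dose, beside 10.6% and 10.4% of all features at the low and 12.7% and 11% at the high dose, and for 33 the interval between doses lay within 1.5-fold, as for 93.3% of all features. Timp1, an inhibitor of matrix metalloproteinases, had a difference of -0.14 (-0.48 to 0.19), and Tnc, the matrix protein tenascin C, of -0.25 (-0.48 to -0.02; adjusted p = 0.833). Of 32 profibrotic signalling genes, 5 had an unadjusted p under 0.05 and were higher at 128 µg and 2 lower, beside 3.48% and 1.93% of all features, with a median of -0.01. Igf1, a growth factor made by lung macrophages, was 1.53 to 1.97 at the low dose and 1.16 to 2.51 at the high dose.

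Mesothelial markers, which mark the lining of the pleura, were lower at the high dose for all 14 genes tested, with a median of -0.40, and 7 had an unadjusted p under 0.05, beside 1.93% of all features lower at that p. None was called between the doses. Lrrn4 was 1.76, 1.42, 0.84, 1.03 and 1.25 at 42.7 µg and 0.49, 1.08, 0.31, 0.81 and 0.14 at 128 µg, a difference of -0.69 (-1.18 to -0.20; adjusted p = 0.610). Wt1, a transcription factor of mesothelium, differed by -0.74, Msln (mesothelin) by -0.60 and Upk3b by -0.54. Averaged over the list and set against the control mean, the low dose animals lay at 0.17, 0.20, -0.27, -0.11 and -0.03 and the high dose animals at -0.36, -0.07, -0.50, -0.20 and -0.79, so the groups overlapped. The controls themselves ran from -0.43 to 0.34 on that scale. The fall was not particular to Mitsui: with NM-401 the list's median step was -0.40, and the median step difference was 0.03. None of the 14 was called against control at the low dose and 4, Lrrn4, Upk1b, Gpm6a and Nkain4, were called lower at the high dose, as were 11% of all features. RNA came from random sections, and whether the share of pleura in a section had a part in these values was not tested.

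The series title concerns genotoxicity, and lists for it were examined. All 28 p53 targets had intervals within 1.5-fold. Cdkn1a, the p53-induced cell cycle inhibitor, was -0.51 to 0.09 at the low dose and -0.57 to -0.26 at the high dose, and was 1.62-fold and 1.45-fold over control. Ddb2, a sensor of damaged DNA, had the smallest p of the list, with a difference of 0.22 (adjusted p = 0.874). Of 44 DNA repair genes, 42 had intervals within 1.5-fold, beside 93.3% of all features, and 3 had an unadjusted p under 0.05, all higher at 128 µg, beside 3.48%. Mutyh, the glycosylase that removes adenine opposite oxidised guanine, was -2.39 to -2.04 at the low dose and -1.90 to -1.55 at the high dose. Its dose groups did not overlap, and the difference was 0.44 (0.23 to 0.64) with an adjusted p of 0.178. The Mutyh values of the controls, -2.16 to -1.73, overlapped both dose groups. Neither dose was called against control (limma adjusted p = 0.1498 at the low and 0.09955 at the high dose). Mitotic and S-phase genes were called higher than control for 25 of 33 genes at the low dose and 20 at the high dose, and their median between doses was -0.10. Aurka, a spindle kinase, was -3.27 to -3.01 and -3.70 to -3.19 (difference -0.24, adjusted p = 0.891).

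Antioxidant genes under NRF2, a sensor of electrophiles, were called higher for 15 of 33 and lower for 7 at each dose; of all features 10.6% and 12.7% were called higher and 10.4% and 11% lower at the low and high dose. Hmox1, heme oxygenase, was -0.56 to -0.37 at the low dose and -0.88 to -0.17 at the high dose, with the low dose range inside that of the high dose. Gsr, glutathione reductase, differed by -0.20. Xenobiotic enzymes were called lower for 6 of 24 genes at each dose, beside the same 10.4% and 11%, and mitochondrial respiratory chain genes had all 26 intervals within 1.5-fold, beside 93.3%.

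Markers of granulocytes and lymphocytes had no called member between the doses. The median between doses was 0.08 for 16 neutrophil genes, -0.05 for 22 T and natural killer cell markers, 0.14 for 17 B and plasma cell markers and 0.16 for 12 eosinophil and mast cell markers. The mean was higher at 128 µg for 15 of the 17 B and plasma cell markers and 9 of the 12 eosinophil and mast cell markers, beside 51.2% of all features. At an unadjusted p under 0.05, 1 B and plasma cell marker was higher and 1 lower, and 2 eosinophil and mast cell markers were higher, beside 3.48% and 1.93% of all features. Of these, the eosinophil marker Ccr3 was well above background in only 1 low dose and 2 high dose animals, which limits its reading. Ccr7, a homing receptor of dendritic cells and T cells, was 2.84 to 3.36 at the low dose and 3.20 to 3.86 at the high dose (difference 0.46, adjusted p = 0.708). Interferon-stimulated genes differed between single animals more than between doses: the list mean over control was 2.07 in low dose animal 4 and 0.24 in animal 2, and 1.16 in high dose animal 5 and 0.32 in animal 2. The list median of the difference was -0.19, and without low dose animal 4 it was 0.07. Only 4 of the 28 interferon intervals lay within 1.5-fold.

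Lists of other tissues and states were read beside these. For cardiac muscle markers the median step was -0.07 and animal means over control ran from -1.26 to 0.88 at the low dose and from -0.81 to -0.28 at the high dose. Red blood cell transcripts had a median of -0.12, with 2 of 9 called lower than control at 42.7 µg and 5 at 128 µg, beside 10.4% and 11% of all features. Among stress genes Dnajb1, a heat shock cochaperone, was 0.63 below control at the low dose and 0.99 below at the high dose, and the difference between doses was -0.37 (-0.59 to -0.14; adjusted p = 0.496). Nfil3, a clock-linked transcription factor, did not overlap between the groups, with -0.95 to -0.76 at 42.7 µg and -1.52 to -0.96 at 128 µg (adjusted p = 0.460). Over all 33 lists, 732 distinct genes were tested, none was called between doses, 65 (8.88%) had an unadjusted p under 0.05 beside 5.42% of all features, and 527 (72%) had intervals within 1.5-fold beside 93.3%.

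**Figure D4:**
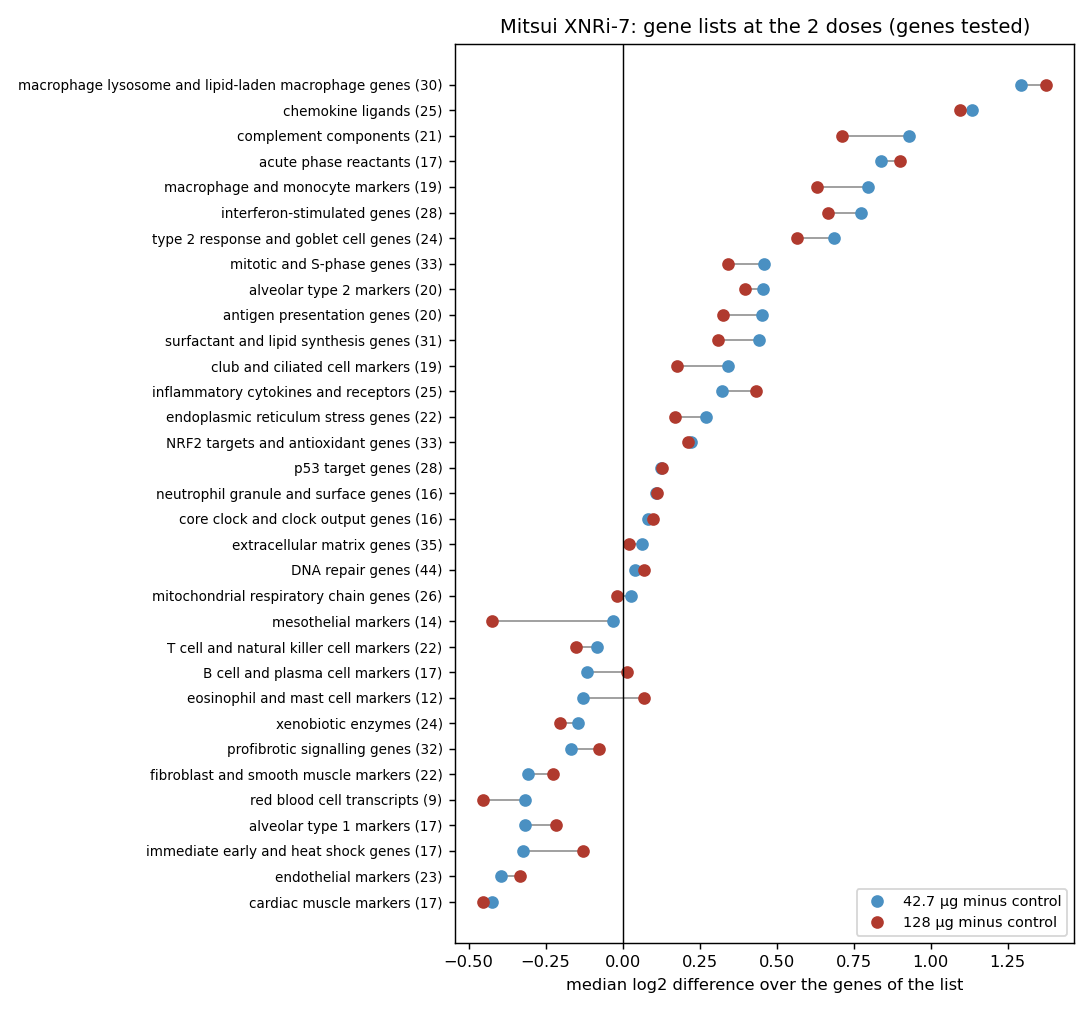
Median log2 difference from control (x axis) over the tested genes of 33 lists (y axis, number of genes in brackets) for 42.7 µg (blue) and 128 µg (red) of Mitsui XNRi-7. The 2 doses share the controls; macrophage lysosome genes lie highest at both doses (1.29 and 1.38), and mesothelial markers are the list whose points lie farthest apart (-0.03 and -0.42).

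The 12 named genes with the smallest p between the doses had adjusted p from 0.136 to 0.141 and were chosen by that p, so they are given as a description. In none did the groups overlap. Haus5, a subunit of the spindle augmin complex, was -2.07 to -1.83 at 42.7 µg and -1.67 to -1.62 at 128 µg. Its difference was 0.31, and the controls, at -1.77 to -1.67, lay between the groups, touching the high dose range. Gabbr1, a subunit of the GABA B receptor, was -1.18 to -0.84 and -0.73 to -0.30, and Rgs11, a regulator of G protein signalling, was -0.54 to -0.02 and 0.11 to 0.66. Neat1, the long noncoding RNA that scaffolds nuclear paraspeckles, was 0.99, 0.94, 1.36, 1.51 and 1.08 at the low dose and 1.67, 1.81, 1.57, 1.87 and 2.13 at the high dose, with controls at 0.73 to 1.26. Its difference of 0.63 (0.36 to 0.91) was the largest of the 12 apart from Gm15772.

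Hnrnpa2b1 (0.28), an RNA-binding protein, and Clasrp (0.33), a splicing factor, were higher at 128 µg, as were Pan2 (0.33), a subunit of a deadenylase, Chkb (0.32), choline kinase beta, Apbb3 (0.30), an adaptor that binds the amyloid precursor protein, and Ankzf1 (0.29), a factor of ribosome quality control. Of the 12, Dnajb9 (-0.32) was lower. Against control, 11 of the 12 were called at the high dose, all but Haus5, and Haus5 alone was called at the low dose. Of all features 23.7% and 21% were called at the high and low dose. The same dose group values chose the 12, so this split is set in part by the choice and is no separate evidence.

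The same step in NM-401 is given as context, and it is no measure of what the Mitsui groups could have shown. Between 128 and 42.7 µg of NM-401, 881 features (3.84%) were called, 618 higher (2.69%) and 263 lower (1.15%). That count rests on the shared estimate of spread: it was 0 when only those 2 groups were fitted, and it ran from 183 to 1232 as each animal was left out, the lowest without NM-401 low dose animal 4. These calls choose the next sets, so the NM-401 medians in them are set in part by the choice and are no measure of the difference between materials. In the 618 features called higher in NM-401 the median step was 0.50 with NM-401 and 0.04 with Mitsui XNRi-7. None was called in Mitsui animals, 65.7% had a higher mean at 128 µg of Mitsui beside 51.2% of all features, and 85.8% of intervals lay within 1.5-fold beside 93.3%. Without Mitsui high dose animal 5 the Mitsui median of this set was -0.01, and without animal 3 it was 0.09. The 263 features called lower in NM-401 had a median of -0.41 there and 0.01 with Mitsui.

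For 754 features (3.29%) called at least 2-fold above control at 128 µg of NM-401, the median step was 0.05 with Mitsui; it was 0.55 with NM-401, whose high dose group chose the set. Among the response genes, the step of Trem2 was 1.17 with NM-401 and 0.17 with Mitsui, that of Gpnmb 1.72 and 0.51, that of Spp1 1.81 and 0.47, and that of Il33 0.86 and -0.27. All 4 were called between the NM-401 doses, but not all 31 response genes were. Among those not called were Fgg, with steps of 0.79 with NM-401 and 0.67 with Mitsui, Cxcl5 (-0.47 and -1.07) and C3 (0.11 and -0.49). The difference between the materials' steps was itself not called for any of the 31 response genes; for Il33 it was -1.12 (-1.71 to -0.53; limma adjusted p = 0.107) and for Gpnmb -1.21 (-2.23 to -0.20; adjusted p = 0.295).

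The difference between the dose steps of the 2 materials was called for 7 features (0.0305%), 2 (0.00871%) with a higher step in Mitsui animals and 5 (0.0218%) with a lower one. Leaving out each animal in turn gave 1 to 197 calls, the most without Mitsui high dose animal 5, and the count was 103 with slide as a block. Of the 7, Hspa5, Manf and Dnajb9 encode proteins of the endoplasmic reticulum that serve protein folding there: Hspa5 (BiP) is its main chaperone, Manf a secreted stress-induced factor and Dnajb9 a cochaperone of BiP. Hspa5 was 0.64, 0.47, 0.45, 0.73 and 0.63 at 42.7 µg of Mitsui and 0.46, 0.49, 0.29, 0.17 and 0.41 at 128 µg. With NM-401 it was -0.03, 0.29, 0.16, 0.16 and 0.32 at the low dose and 0.54, 0.55, 0.54, 0.64 and 0.50 at the high dose. The step was thus -0.22 with Mitsui and 0.37 with NM-401, a difference of -0.60 (-0.81 to -0.38; limma adjusted p = 0.0381).

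Manf was -0.29 to 0.04 and -0.71 to -0.24 at the Mitsui doses and had steps of -0.23 and 0.47 in the 2 materials (difference -0.70, adjusted p = 0.0332). Dnajb9 was 1.15 to 1.40 at the low and 0.88 to 1.05 at the high Mitsui dose, and its steps were -0.32 and 0.21 (difference -0.53, adjusted p = 0.0381). Dnajb9 was called below control at 128 µg of Mitsui (-0.26) and was not at 42.7 µg (0.06). Over the 39 alternative settings the step difference kept its sign in all for each of the 3 genes and was called in 27 for Manf, 22 for Hspa5 and 18 for Dnajb9.

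Of 22 endoplasmic reticulum stress genes, 8 had an unadjusted p under 0.05 between the Mitsui doses, all lower at 128 µg, beside 1.93% of all features, and none was called. Besides Hspa5, Manf and Dnajb9 they were Xbp1 (-0.20), a transcription factor of the unfolded protein response, the disulfide isomerases Pdia4 (-0.24) and Pdia6 (-0.15), Creld2 (-0.17), a stress-induced resident protein, and Asns (-0.18), asparagine synthetase. The list median was -0.12, and all 22 intervals lay within 1.5-fold. Against control 11 were called higher and 1 lower at the low dose, and 7 higher and 4 lower at the high dose. The shares of all features were 10.6% and 10.4% at the low dose and 12.7% and 11% at the high dose. Averaged over the list and set against the control mean, low dose animals lay at 0.18, 0.19, 0.13, 0.26 and 0.24 and high dose animals at 0.12, 0.12, -0.02, 0.05 and 0.11, without overlap.

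The promoters of these genes are known for an element through which stress sensors act. The endoplasmic reticulum stress element, CCAAT and CCACG with 9 bases of any kind between them and on either strand, was searched in the 250 bases before each transcription start in RefSeq promoters of GRCm38.p6. It was found in 37 of 32851 promoters (0.113%), which is 35 of 27025 genes (0.13%), and in 7 of the 20 listed genes that have a promoter there. The element is shown in capitals with up to 20 bases on each side, on the strand of the gene and 5′ to 3′, for the 3 of these 7 genes whose unadjusted p was under 0.05.
Hspa5 (chr2:34772005-34772063, + strand): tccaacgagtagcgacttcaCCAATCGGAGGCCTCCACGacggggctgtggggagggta
Creld2 (chr15:88819500-88819558, + strand): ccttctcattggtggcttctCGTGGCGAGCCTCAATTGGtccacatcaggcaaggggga
Pdia6 (chr12:17266471-17266529, + strand): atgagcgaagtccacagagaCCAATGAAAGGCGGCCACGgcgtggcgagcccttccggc
In Hspa5 and Pdia6 the element reads as written and in Creld2 as its reverse complement, 65, 98 and 126 bases before the start in the order Hspa5, Pdia6 and Creld2. The median Mitsui step was -0.15 over the 7 genes with the element, the others being Hsp90b1, Dnajc3, Calr and Canx, and -0.10 over the 13 without it, Dnajb9 among them. The listed genes without a promoter entry were Manf and Hyou1.

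**Figure D5:**
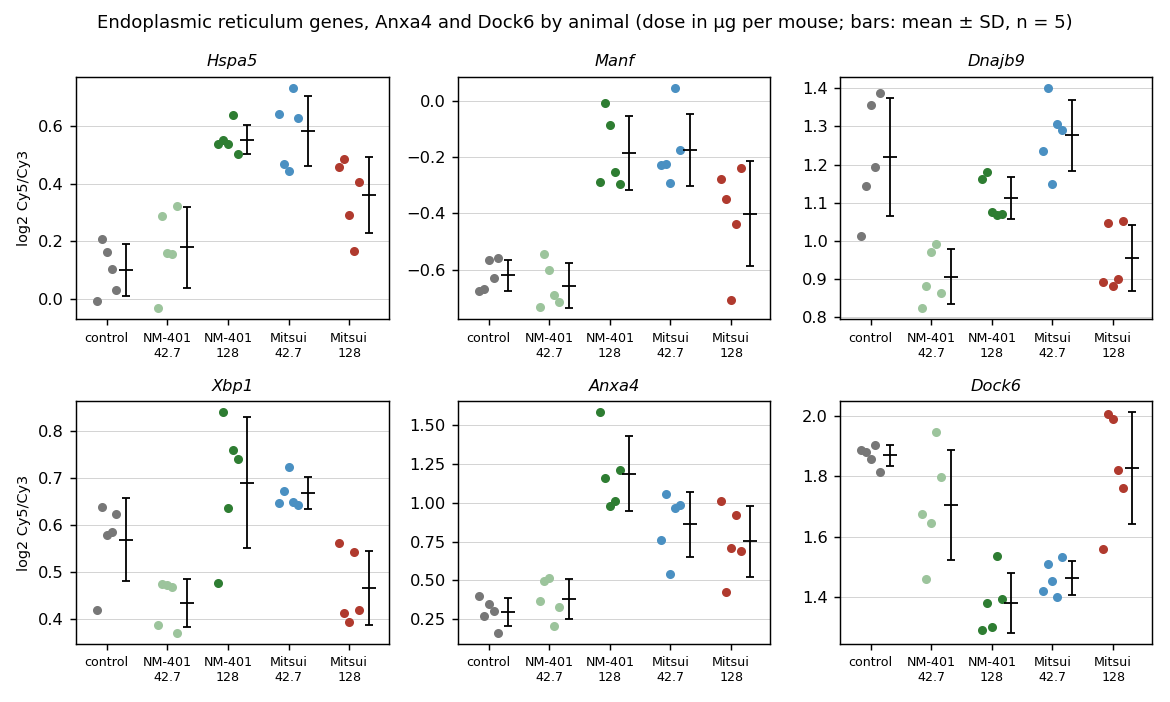
Normalised log2 Cy5/Cy3 (y axis) of Hspa5, Manf, Dnajb9, Xbp1, Anxa4 and Dock6 in every animal of the 5 groups, with mean ± SD (n = 5). For the 4 endoplasmic reticulum genes the group mean is higher at 128 than at 42.7 µg of NM-401 and lower at 128 than at 42.7 µg of Mitsui XNRi-7.

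Of the remaining step differences, Anxa4, a calcium-dependent membrane-binding protein, was 0.54 to 1.06 at 42.7 µg and 0.43 to 1.01 at 128 µg of Mitsui, a step of -0.11, while with NM-401 its step was 0.80 (difference -0.91, adjusted p = 0.0381). Dock6, a guanine nucleotide exchange factor, was 1.40 to 1.53 and 1.56 to 2.01 at the Mitsui doses, without overlap. Its high dose mean of 1.83 was near the control mean of 1.87, and it was called below control at the low dose alone (-0.41). The Dock6 steps were 0.36 with Mitsui and -0.32 with NM-401 (difference 0.69, adjusted p = 0.0335). Gm15772 had 2 levels across the series: it was near 0 (-0.14 to 0.16) in all 5 high dose Mitsui animals, 4 low dose NM-401 animals and 2 controls, and at -1.82 or below in the others, all 5 low dose Mitsui animals included. Its Mitsui step was 2.15 (1.21 to 3.08) and the step difference 4.36 (adjusted p = 0.0124). Fitted on the Mitsui animals alone, Gm15772 was called between the doses (adjusted p = 9.03e-06), where no other feature was.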

How the data were processed

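Lung RNA of 25 mice was measured on 26 two-colour arrays. Spot intensities, flags and log10 ratios are as Agilent Feature Extraction 11.0.1.1 wrote them, per the file headers; the deposited series matrix holds the authors' values, which have a slope near 1 on the log2 loess ratios computed here (0.999 to 1.09, correlation 0.988 to 0.998, column medians -0.04 to -0.0181). They are thus log2 lung over reference, with the method of centring not given in the sources used here. On the scanner's own log2 ratios the authors' values had a slope of 0.527 to 0.589, so sizes differ between these scales.

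Median intensities were background-corrected (normexp, offset 50) and loess-normalised, and outlier spots (0.461%) left out. The arrays of Mitsui low dose animal 5 were averaged (correlation 0.980). Probes well above background in Cy5 in at least 4 animals of a group were kept (30466 of 55681), with the brightest probe per gene. limma 3.58.1 (R 4.3.3) fitted 1 mean per group over all 25 animals (20 residual and 3.76 prior degrees of freedom), with Benjamini-Hochberg adjustment over all 22950 features; 11 features lacked a Mitsui value. The script was tested on simulated data. Named genes were the 12 smallest p between doses, the smallest p of each list, 31 response genes, and up to 5 step differences each way. Members and lists were chosen with earlier results of these data known. The number of animals limits the precision; replicates are separate animals. Alternatives covered normalisation, filters, blocks, weights and each animal left out. Gene symbols were assigned by matching the accession of each probe in the scanner files to the RefSeq table. Older names in the gene lists were updated through its synonyms. Promoters are RefSeq's.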

Additional observations from a re-analysis of the deposited data

Results flagged for a closer look

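The dose step differed between the materials, by the test of the difference itself (limma, adjusted p under 0.05), for Gm15772 (4.36), Dock6 (0.69), Hspa5 (-0.60), Manf (-0.70), Dnajb9 (-0.53), Anxa4 (-0.91) and 1 feature on chromosome 2 without a gene symbol (-0.50), each given as Mitsui minus NM-401 in log2 units. Gm15772 was called in 38 of 39 alternative settings, and the other 6 in 18 to 27.

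Single animals stood apart from the other 4 of their group by Dixon's criterion in 7 of 218 group and item pairs examined (list means and named genes), where chance alone marks about 1 in 20. At 42.7 µg these were Cav1 at 1.91 in animal 1 (others 1.46 to 1.58), Npr3 at 0.27 in animal 2 (others 0.91 to 1.15), Spp1 at 0.86 in animal 5 (others 0.05 to 0.16) and Gm15772 at -2.62 in animal 5 (others -2.12 to -1.93). At 128 µg they were Cd14 at 1.11 in animal 5 (others 0.15 to 0.41), Tnc at -0.38 in animal 5 (others -0.17 to -0.10) and Pan2 at 0.11 in animal 2 (others -0.08 to -0.06).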

How the results depend on the processing

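The count of 0 features between the Mitsui doses was the same under 11 of 14 alternatives of processing or model. It was 15 with slide as a block, 1 when only the Mitsui groups were fitted (Gm15772), 1 with the replicate block (Rgs11), and 0 to 3 as each animal was left out: 2 without Mitsui high dose animal 4 and 3 without animal 5. With median centring the calls fell to 74 (low dose against control), 121 (high dose against control), 8 (NM-401 step) and 0 (step difference). Intervals within 1.5-fold then numbered 7644, and 16040 with the scanner's log ratios. With no filter on dim probes there were 35404 such intervals among more probes, and 3 step differences. Calls against control ran from 3999 to 4971 at the low and 4407 to 5648 at the high dose as animals were left out, and intervals within 1.5-fold from 21016 to 21487. The NM-401 step gave 1563 calls with the slide block, 1745 with array weights, 0 on its own 2 groups, and 183 to 1232 as animals were left out. The step difference gave 11 without background subtraction, 16 with the scanner's log ratios, 14 with the authors' matrix, 12 with the stricter filter, 11 with every probe a feature, 103 with the slide block, 1 with the replicate block, 4 with a trended and robust prior, 130 with array weights, 2 on the groups compared, and 1 to 197 as animals were left out. The causes were not tested.

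Same-numbered Mitsui animals did not deviate together (correlations -0.093 to 0.099 over the 5 numbers), so the numbers pair no animals, and the replicate block, with 1 call between the doses, is a setting only. No result changed direction while called. Differences that were not called changed sign in some settings for Trem2 (-0.01 to 0.37), Hmox1, Ccl2, Flt1, Clca1, Il6, Muc5b and Cav1. Of the list medians, that of alveolar type 2 markers moved beyond the spread between animals, to -0.06 with array weights. Signal over background limits what can be said of Clca1 and Npy in controls.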
